A study of Homo sapiens with 9 samples.

Results

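The heat shock and protein folding genes examined here were 39 genes of 25680 with counts in RNA-seq of SKNO-1 cells. They were taken by symbol, and each gene was represented by its RefSeq transcript with the highest total count. SKNO-1 is a human acute myeloid leukaemia line that carries the RUNX1-RUNX1T1 fusion, and the study grew it with GM-CSF. The 9 samples formed 3 groups of 3: EV, the control group (the labels do not explain the name, and the study describes a control shRNA), ASXL2 SH2 and ASXL2 SH3, each an shRNA against ASXL2, a polycomb-associated chromatin protein. The labels numbered the samples of each group 1, 13 and 25 without saying what the numbers stand for. The study describes triplicates, and p values here measure only the spread between these samples. The extraction text in the labels describes sorted bone marrow cells instead of a cell line. Of 8 markers chosen for a myeloid leukaemia line 6 passed the filter on low counts, among them MPO at 6366 to 10240 CPM (normalised counts scaled to the library total), RUNX1T1 at 111 to 138 CPM and KIT at 237 to 419 CPM. CD34 (40 counts over all samples) and CSF2RA (1 count), a receptor chain for GM-CSF, did not pass. Reads can be lost in counting, as described below for other genes, so the low count does not show that CSF2RA was silent. The markers of other cell types CD3E, MS4A1, EPCAM, COL1A1 and ALB did not pass, and CD3E and MS4A1 were at 0 counts.

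Molecular chaperones bind unfolded proteins and help them to fold. HSP70 proteins, fed by HSP40 co-chaperones and reset by HSP110 exchange factors, pass clients to HSP90, to the cytosolic chaperonin CCT or, inside mitochondria, to the HSPD1-HSPE1 chaperonin. Under stress the transcription factor HSF1 binds heat shock elements, repeats of GAA and its complement TTC, and induces chaperone genes such as HSPA1A, HSPA1B, HSPH1, DNAJB1 and HSP90AA1, while HSPA8 and HSP90AB1 are made in unstressed cells as well. HSP90 holds many kinases and transcription factors of leukaemia cells in an active shape.

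The bases upstream of 4 members are shown because these genes were among the 6 that were higher in samples numbered 25 than in those numbered 13, described below. The sequences are the 250 bases before the RefSeq gene start on GRCh38.p14, 5′ to 3′ on the strand of the gene, and capitals mark each match to GAANNTTC or TTCNNGAA, patterns that read the same on both strands and can overlap each other. HSPA8 is at chr11:123062137-123062386, minus strand, with 4 matches in 2 overlapping pairs. HSP90AA1 is at chr14:102087045-102087294, minus strand, with 3 matches. DNAJB1 is at chr19:14518398-14518647, minus strand, with 2 matches. HSPH1 is at chr13:31162389-31162638, minus strand, with 0 matches.
HSPA8: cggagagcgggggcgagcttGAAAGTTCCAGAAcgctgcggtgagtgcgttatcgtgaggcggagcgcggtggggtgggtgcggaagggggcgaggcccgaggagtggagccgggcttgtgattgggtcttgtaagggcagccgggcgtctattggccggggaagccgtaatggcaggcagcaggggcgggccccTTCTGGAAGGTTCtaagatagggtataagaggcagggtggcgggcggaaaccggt
HSP90AA1: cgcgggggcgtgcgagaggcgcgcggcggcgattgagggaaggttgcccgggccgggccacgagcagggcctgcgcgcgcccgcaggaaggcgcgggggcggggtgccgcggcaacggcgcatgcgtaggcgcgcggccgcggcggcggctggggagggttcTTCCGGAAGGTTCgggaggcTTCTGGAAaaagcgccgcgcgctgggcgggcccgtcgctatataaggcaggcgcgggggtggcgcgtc
DNAJB1: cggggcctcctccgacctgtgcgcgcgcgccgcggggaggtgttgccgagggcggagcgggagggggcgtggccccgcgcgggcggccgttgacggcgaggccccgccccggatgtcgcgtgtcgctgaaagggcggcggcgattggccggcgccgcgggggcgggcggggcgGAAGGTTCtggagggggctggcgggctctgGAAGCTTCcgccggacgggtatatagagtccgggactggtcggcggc
HSPH1: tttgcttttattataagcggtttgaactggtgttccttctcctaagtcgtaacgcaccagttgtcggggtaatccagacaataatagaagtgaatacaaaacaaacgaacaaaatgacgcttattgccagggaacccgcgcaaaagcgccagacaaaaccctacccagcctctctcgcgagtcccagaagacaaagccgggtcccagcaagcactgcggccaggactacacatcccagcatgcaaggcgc
HSP90AA1 had 2 listed starts and DNAJB1 3, and the window with most matches is shown. HSPA8 and HSPH1 had 1 listed start each. Starts that were not listed were not searched, so 0 matches for HSPH1 holds for the window shown only. The first bases of the matches lay 230, 225, 55 and 50 bases before the start in HSPA8, 88, 83 and 68 before it in HSP90AA1, and 77 and 47 before it in DNAJB1. Over whole windows of 300 bases, from 250 before to 50 after a start, 35 members had a window, and 19 of them (54.3%) held a match in at least 1 window, against 16.2% of 27305 genes. HSPA14, CRYAB, CCT6A and HSF1 had no window. At least 2 matches were found in 8 of 49 member windows (16.3%) and in 1.71% of all 35116 windows. Among the 6 members higher in samples numbered 25, 3 (HSPA8, HSP90AA1 and DNAJB1) held a match, and HSPH1, AHSA1 and TRAP1 held none in their windows. This share did not exceed the 54.3% of members with a window. The bases upstream of AHSA1 and TRAP1 are not shown. A match describes letters only, and was not tested as a binding site.

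Of the 39 members 36 passed the filter on low counts. HSPA1A, the inducible HSP70 gene at chr6:31783320-31785719 (GRCh37, as are all gene positions here), had 1 count in 1 of 9 samples. HSPA1L had 2 counts in all and the small heat shock gene CRYAB 7. HSPA1B, a near-identical copy of HSPA1A, passed with 160 counts in all. Its counts were 27, 14 and 16 in EV, 22, 10 and 26 in SH2, and 15, 16 and 14 in SH3, for samples 1, 13 and 25 in that order. Reads shared by both copies could be split or dropped in counting, so the levels of this pair are uncertain. PFDN6, a prefoldin subunit gene on the same chromosome (chr6:33257378-33258710), also had 1 count in all, so a low count does not show here that a gene was silent. The same limit holds for HSPA1L, which neighbours the pair, and HSPA6 has a near-identical pseudogene that could take its reads.

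HSPA8 and the cytosolic HSP90 genes led the levels per length. In EV samples, HSPA8 stood at 1258 ± 273 CPM per kilobase of transcript (SD, n = 3), HSP90AB1 at 931 ± 123 and HSP90AA1 at 727 ± 249. These 3 genes together held 47.8% of all member counts. Lengths were those of the canonical GENCODE transcript of each gene, which need not be the RefSeq transcript counted, so levels per length are approximate. The chaperonin subunits followed, from CCT5 at 327 ± 46.0 CPM per kilobase to TCP1 at 133 ± 16.7, with HSPD1 at 232 ± 52.7 and HSPE1 at 197 ± 45.1 among them. DNAJA1 at 170, HSPA9 at 155, STIP1 at 154 and AHSA1 at 149 CPM per kilobase lay in the same range. HSF1, the stress-responsive transcription factor, was at 108 ± 9.05 CPM per kilobase and HSF2, its relative, at 10.7 ± 0.396. The inducible members spread over the whole scale, from HSP90AA1 down: HSPB1 was at 68.6 ± 7.98 CPM per kilobase, HSPH1 at 58.7 ± 20.4, DNAJB1 at 44.8 ± 8.67, BAG3 at 4.12 ± 0.650, HSPA6 at 2.40 ± 0.259 and HSPA1B at 0.232 ± 0.0557. Of 35 pairs of neighbours in this order, 26 had overlapping ranges of mean ± SD, so that most neighbours could not be ranked. The clearest step near the top was that from HSP90AA1 down to CCT5.

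**Figure D1:**
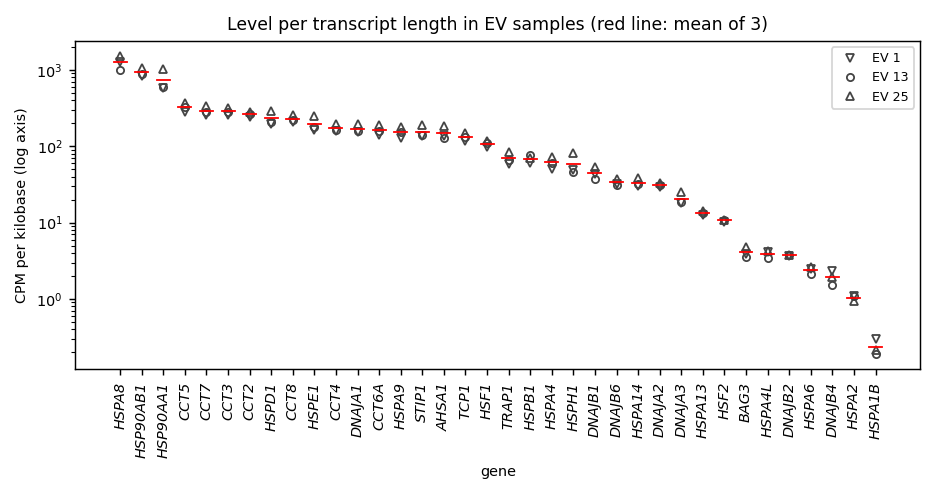
Level of each of the 36 tested members in the 3 EV samples, as CPM per kilobase of the canonical GENCODE transcript on a log axis, ordered by the mean (red line). HSPA8, HSP90AB1 and HSP90AA1 lie above all other members, and HSPA1B lies lowest, at a mean of 0.232.

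The first question of the design was whether the shRNAs against ASXL2 changed these genes. ASXL2 itself was at 67.9, 67.9 and 74.7 CPM in EV samples 1, 13 and 25, at 30.4, 36.2 and 36.2 CPM in SH2, and at 26.9, 29.0 and 41.1 CPM in SH3. All 6 knockdown samples lay below all 3 EV samples. The log2 fold change, both shRNAs averaged against EV, was -1.08 ± 0.13 (SE), with an adjusted p of 0.177 by edgeR without a block. With the sample number as a block it was -1.09 ± 0.08, with an adjusted p of 0.00098, and ASXL2 passed the threshold of 0.05 for each shRNA.

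No member passed the test in any comparison of the groups. Without the block, edgeR called 0 of 36 members for SH2 against EV (0% of all 14199 genes were called), for SH3 against EV (0%), for both averaged (0%) and for SH3 against SH2 (0%). At an unadjusted p under 0.05 there was 1 member for SH2, HSPA4L, and 0 in the other comparisons, beside 5.37%, 5.09%, 6.63% and 2.06% of all genes, and DESeq2 called 0 members in each. With the block, 0 members were called while the share of all genes was 0.282% for SH2, 0.416% for SH3, 1.1% for both averaged and 0.106% for SH3 against SH2. At an unadjusted p under 0.05 there were 4, 2, 5 and 2 members of 36 in these 4 comparisons, beside 18.7%, 18.7%, 20.4% and 11.9% of all genes, so members did not exceed the background. The standard error of a member had a median of 0.09 for either shRNA in the blocked fit, on the log2 scale. These comparisons share the EV samples, so SH2 and SH3 are given side by side.

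With SH2 the members' median log2 fold change in the blocked fit was 0.12, with 31 of 36 values above 0, beside a median of 0.00524 over all genes. With SH3 the median was 0.03, with 24 of 36 above 0, beside 0.00793. HSPA4L, an HSP110-family exchange factor, had 43.9, 36.0 and 45.2 CPM in EV samples 1, 13 and 25, 33.9, 32.1 and 34.5 in SH2, and 32.3, 38.8 and 43.1 in SH3. All SH2 values lay below all EV values, while SH3 overlapped EV. The share of all genes with such a separation was not counted. Without the block, its log2 fold change for SH2 was -0.32 ± 0.13 (SE), adjusted p = 0.892, and for both averaged -0.22 ± 0.11, adjusted p = 0.797. With the block these were -0.31 ± 0.10 (adjusted p = 0.151) and -0.22 ± 0.09 (0.182). The next smallest p values without the block were those of the chaperonin subunits CCT4, CCT8 and TCP1, while in the blocked fit DNAJA3 (0.22 ± 0.09, adjusted p = 0.211) and HSPE1 (0.23 ± 0.10, adjusted p = 0.258) came before CCT4 for SH2. Without the block, CCT4 differed by 0.16 ± 0.10 for SH2 (adjusted p = 0.966), by 0.14 ± 0.10 for SH3 (0.971) and by 0.15 ± 0.09 for both averaged (0.858). CCT8 differed by 0.19 ± 0.10 for SH3 (adjusted p = 0.971) and by 0.17 ± 0.09 for both averaged (0.800), and TCP1 by 0.19 ± 0.12 for SH2 (0.966). DNAJB4, an HSP40 co-chaperone, differed by 0.45 ± 0.33 for SH3 (adjusted p = 0.971), a value of 0.0038 without SH3 1. With the block it was 0.40 ± 0.15 (adjusted p = 0.193). Between the shRNAs, SH3 against SH2, the smallest p values were those of DNAJB2 (0.32 ± 0.21), HSPA4L (0.18 ± 0.13) and DNAJB1 (-0.20 ± 0.21), each with an adjusted p of 0.998, and the DNAJB2 value was -0.0027 without SH3 1.

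**Figure D2:**
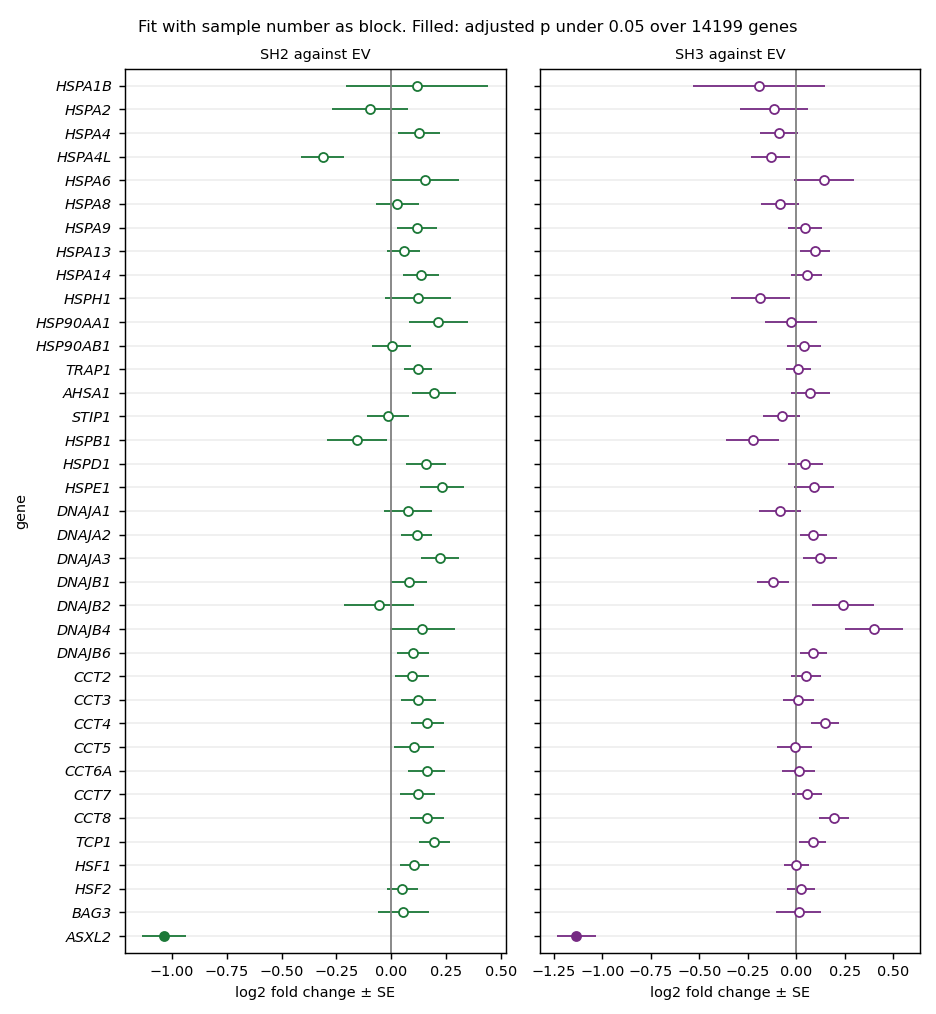
Log2 fold change ± SE of the 36 members and of ASXL2 for SH2 against EV (left) and SH3 against EV (right), fitted with the sample number as a block, with each panel on its own axis. All members are open points (not called), while ASXL2 is filled at -1.04 and -1.13.

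For 0 of 36 members did all 6 knockdown samples lie on 1 side of all 3 EV samples, beside 4.77% of all genes. The SH3 sample numbered 1 stood apart: it was the lowest of the 9 samples for 18 of 36 members and for 26.3% of all genes. Without it the blocked fit called 3 members for SH2, beside 11.2% of all genes, 1 for SH3 beside 2.58%, and 4 for both averaged beside 12.3%. As shares of the 36 members these were near or under those of all genes, so the calls do not set members apart. HSPE1, the mitochondrial co-chaperonin, was then higher with SH2 by 0.23 ± 0.06 (adjusted p = 0.0381) and with both averaged by 0.22 ± 0.06 (0.0285). DNAJA3, a mitochondrial HSP40 protein, was higher with SH2 by 0.22 ± 0.06 (adjusted p = 0.0423) and with both averaged by 0.22 ± 0.06 (0.0333). AHSA1, which activates the HSP90 ATPase, was higher with both averaged by 0.20 ± 0.06 (0.0384). HSPA4L was lower with SH2 by a log2 fold change of -0.31 ± 0.06 (adjusted p = 0.0133). HSPB1, a small heat shock protein, was lower with SH3 at -0.44 ± 0.09 (adjusted p = 0.0286) and with both averaged at -0.29 ± 0.07 (0.0223). None of these calls was made with all 9 samples, and leaving out any other sample in the blocked fit called 0 members.

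HSPB1 had the smallest p in the tests of whether the difference of number 1 varied between groups. It was at 46.6, 58.8 and 54.5 CPM in EV samples 1, 13 and 25, at 50.9, 44.8 and 48.3 in SH2, and at 58.1, 38.6 and 41.5 in SH3. In samples numbered 13 and 25 both shRNA groups lay below EV, and in those numbered 1 both lay above it. The difference of number 1 from the other numbers was larger by 0.82 ± 0.17 (log2) in SH3 than in EV, with an unadjusted p of 0.0013 and an adjusted p of 0.513. In SH2 it was larger than in EV by 0.41 ± 0.17 (adjusted p = 1). For DNAJB2, at 11.1, 11.5 and 11.7 CPM in EV and at 19.4, 11.5 and 10.6 in SH3, the same difference was 0.87 ± 0.22 (adjusted p = 0.573), and for HSPA4 it was -0.35 ± 0.17 (adjusted p = 0.672). DNAJA2 (0.17 ± 0.16) and CCT8 (0.19 ± 0.18) had the next smallest p values in SH2 (adjusted p = 1 for both). These tests called 0 members and 0% of all genes for SH2 and for SH3, with 1 and 2 of 36 members at an unadjusted p under 0.05 beside 1.16% and 7.89% of all genes, and DESeq2 called 0 members in each. Their fit had no term for 25 against 13, so that difference counted as spread. It widened the SE of genes that differed between 13 and 25, to 0.53 for HSPA8 in SH2, and shaped the order of p values. The lack of calls therefore does not show that the groups were alike in this difference.

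More members were called by sample number than by shRNA, as held for all genes. With number and group in the fit, samples numbered 1 differed from those numbered 13 and 25 in 19 of 36 members, beside 46.3% of all genes. Of the 19 members 18 were lower, beside 22.2% of all genes, and 1 was higher, beside 24.1%. The members' median log2 fold change was -0.18, and that of all genes 0.0074. All 3 samples numbered 1 lay below the other 6 for 5 members (HSPA4, HSPA9, TRAP1, CCT5 and HSF1), beside 12.1% of all genes, so by this measure members were near the background. Without the SH3 sample numbered 1, 15 members were lower, beside 16.3% of all genes, and DNAJB4 was still higher. DNAJA1, CCT3 and AHSA1 were the 3 no longer called. Of the 6 myeloid markers tested, PTPRC (0.75 ± 0.11, adjusted p = 0.000966) and KIT (0.36 ± 0.08, adjusted p = 0.0066) were higher in number 1 and 0 were lower, and their part in the result was not tested.

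A second contrast, samples numbered 25 against 13, was added after the data were seen. It called 6 members higher, beside 2.77% of all genes, and 0 lower, beside 3.1%. The members' median was 0.17, that of all genes -0.00057, and 33 of 36 values lay above 0. For 26 members all 3 samples numbered 25 lay above all 3 numbered 13, which held for 15.9% of all genes, and for 28 members the highest of the 9 samples was one numbered 25, beside 29.5% of all genes. The number of calls moved with single samples, for members and for all genes alike. Without EV 25, SH2 13 or SH3 25 there were 0 members higher, beside 0.153%, 0.321% and 0.278% of all genes. Without EV 13 or SH2 25 there were 2, beside 0.780% and 0.285%. Without SH3 13 there were 10, beside 2.89%, and without SH3 1 there were 15, beside 9.87%. Over all alternatives the log2 fold change stayed between 0.60 and 0.72 for HSPA8 and between 0.52 and 0.65 for DNAJB1. Members together took 1.43%, 1.43% and 1.90% of counts in EV samples 1, 13 and 25, 1.56%, 1.54% and 1.93% in SH2, and 1.25%, 1.56% and 1.82% in SH3. The libraries held 30385271 to 35406063 counts in number 1, 29197656 to 32648040 in number 13 and 27714431 to 29705803 in number 25, and the part of depth was not tested. Both contrasts use the samples numbered 13 and 25, so their values are given side by side. What the numbers stand for, and whether cells, handling or libraries differed with them, cannot be told apart here, nor can fewer cells that express a gene and less RNA of it per cell.

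**Figure D3:**
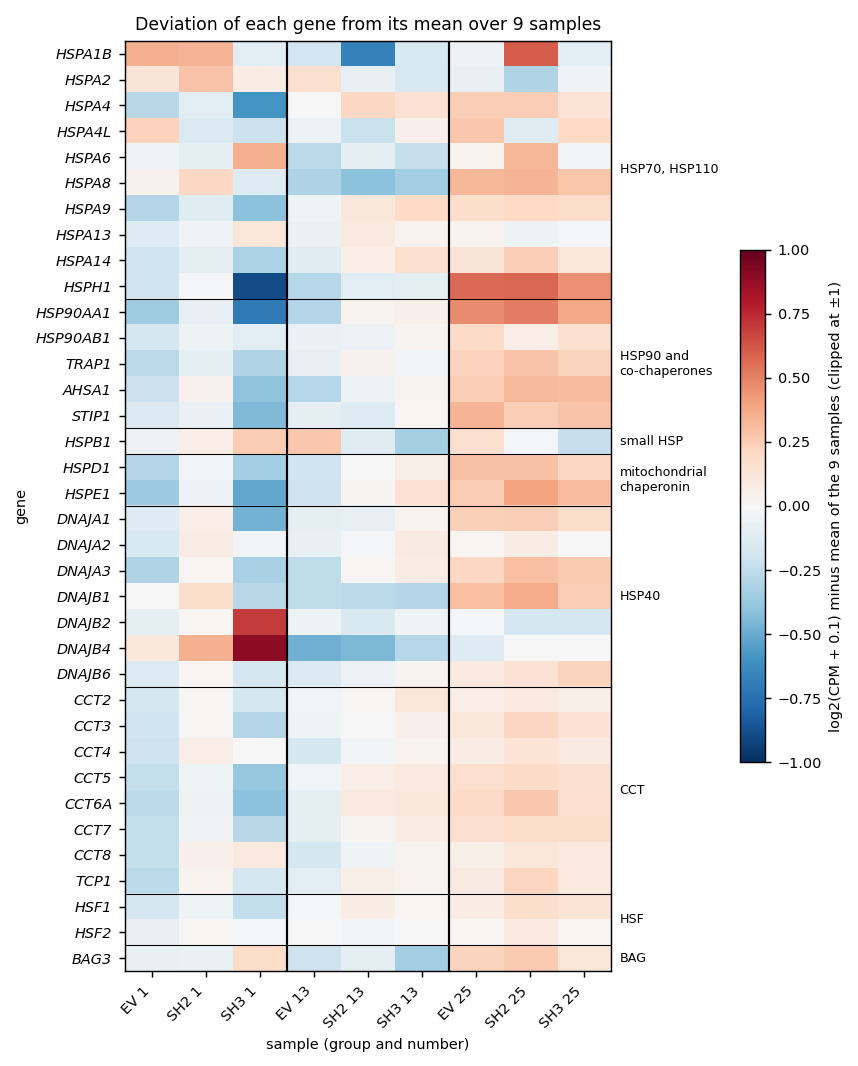
Deviation of each of the 36 tested members (rows, by role) from its own mean over the 9 samples, as log2(CPM + 0.1), with columns ordered by sample number and then group. Red (above the mean) fills most of the columns numbered 25, and blue most of those numbered 1, most deeply in SH3 1.

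Of the 5 HSP90 genes and co-chaperones 4 were lower in number 1 and 3 were higher in 25 than in 13. These counts stand beside 22.2% and 2.77% of all genes. HSP90AA1, the inducible cytosolic HSP90 at chr14:102547079-102553381, was at 1846, 1923 and 3274 CPM in EV samples 1, 13 and 25, at 2235, 2415 and 3376 in SH2, and at 1443, 2442 and 3066 in SH3. All samples numbered 25 were above all others, and number 1 was lowest in each group. It was lower in number 1 at a log2 fold change of -0.57 ± 0.12 (adjusted p = 0.00367) and higher in 25 than in 13 by 0.52 ± 0.13 (0.0480). HSP90AB1, the constitutive form, differed by -0.16 ± 0.08 (adjusted p = 0.107) and by 0.17 ± 0.09 (0.260). AHSA1 was at 180, 171 and 248 CPM in EV, 215, 202 and 261 in SH2, and 158, 213 and 260 in SH3, so that number 25 was highest in every group. It was lower in number 1 at -0.28 ± 0.09 (0.0229) and higher in 25 by 0.39 ± 0.10 (0.0474). TRAP1, the mitochondrial HSP90, was at 130, 149 and 184 CPM in EV, 147, 162 and 192 in SH2, and 128, 155 and 184 in SH3. Its 3 numbers did not overlap, and it changed at -0.34 ± 0.06 (adjusted p = 0.00141) and 0.27 ± 0.06 (0.0366). STIP1, which joins HSP70 to HSP90, was lower in number 1 at -0.32 ± 0.08 (0.0103), a value of -0.20 without SH3 1, and stood at 0.36 ± 0.10 for 25 against 13 (0.0523).

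Among HSP70 and HSP110 genes 4 of 10 were lower in number 1, beside 22.2% of all genes, and 2 were higher in 25 than in 13, beside 2.77%. HSPA8, the constitutive HSP70 at chr11:122928197-122932844 and the most abundant member, was at 2841, 2236 and 3471 CPM in EV samples 1, 13 and 25, at 3196, 2083 and 3488 in SH2, and at 2527, 2173 and 3342 in SH3. Number 13 was lowest and number 25 highest in every group, with number 1 between them. It was higher in 25 than in 13 by 0.66 ± 0.10 (adjusted p = 0.0063), 1.54 to 1.67 times by group, and differed by 0.06 ± 0.09 for number 1 against the others (0.569). HSPH1, the HSP110 exchange factor at chr13:31709110-31736041, was at 253, 239 and 431 CPM in EV, 288, 268 and 434 in SH2, and 156, 273 and 400 in SH3. Number 25 lay above all other samples, and SH3 1 lay below all others. HSPH1 was higher in 25 than in 13 by 0.69 ± 0.15 (adjusted p = 0.0258) and lower in number 1 at -0.54 ± 0.13 (0.00824), or at -0.30 without SH3 1.

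HSPA4, another exchange factor of the HSP110 family at chr5:132387705-132442141, followed a different order. It was at 242, 291 and 347 CPM in EV samples 1, 13 and 25, at 272, 336 and 347 in SH2, and at 193, 325 and 321 in SH3. All samples numbered 1 were below the rest, as for 12.1% of all genes, while 13 and 25 overlapped. Its change for number 1 was -0.49 ± 0.09 (adjusted p = 0.00177), and for 25 against 13 its value was 0.09 ± 0.10 (0.610). HSPA9, the mitochondrial HSP70, was at 571, 679 and 793 CPM in EV, 642, 759 and 805 in SH2, and 527, 803 and 793 in SH3, and was lower in number 1 at -0.41 ± 0.08 (0.00248). HSPA14, a ribosome-associated HSP70, was lower at -0.30 ± 0.07 (0.00647). Of the inducible HSP70 genes, HSPA6 differed by 0.13 ± 0.13 for number 1 (adjusted p = 0.441) and by 0.32 ± 0.16 for 25 against 13 (0.244), and HSPA1B by 0.33 ± 0.28 (0.351) and 0.58 ± 0.35 (0.342). HSPA2, HSPA4L and HSPA13 were not called in either contrast, with values between -0.11 and 0.25.

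**Figure D4:**
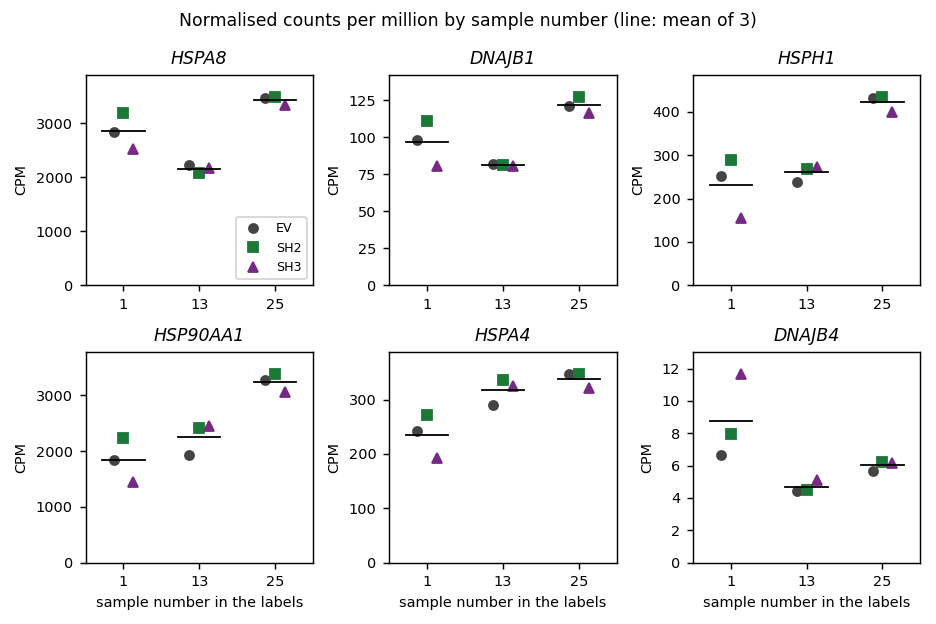
Normalised CPM of 6 members against the sample number in the labels, with 1 point per sample (EV, SH2, SH3) and a line at the mean of 3, and each vertical axis from 0. HSPA8 and DNAJB1 are lowest in number 13, HSPH1 and HSP90AA1 are highest in number 25, HSPA4 is lowest in number 1, and DNAJB4 is highest there.

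The HSP40 co-chaperones, which load clients onto HSP70, were mixed. DNAJB1, the stress-inducible partner of HSP70 at chr19:14625581-14629209, was at 98.2, 82.3 and 121 CPM in EV samples 1, 13 and 25, at 111, 81.6 and 127 in SH2, and at 80.9, 80.4 and 117 in SH3. As for HSPA8, number 13 was lowest and 25 highest in each group. It was higher in 25 than in 13 by 0.58 ± 0.08 (adjusted p = 0.00544), and differed by -0.05 ± 0.07 for number 1 (0.597). DNAJB4 went the other way in number 1: it was at 6.68, 4.42 and 5.67 CPM in EV, 7.97, 4.51 and 6.20 in SH2, and 11.6, 5.09 and 6.19 in SH3, with all 3 samples numbered 1 above the rest. Its log2 fold change of 0.70 ± 0.12 (adjusted p = 0.00193) made it the 1 member called higher, and without SH3 1 it was 0.50. DNAJA3 at -0.30 ± 0.08 (0.00883) and DNAJA1, a general HSP40, at -0.26 ± 0.10 (0.0450) were lower in number 1. DNAJA2, DNAJB2 and DNAJB6 were not called in either contrast, with values for number 1 of -0.05, 0.33 and -0.14.

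Of the 10 chaperonin genes 7 were lower in number 1, beside 22.2% of all genes, and 0 were called for 25 against 13, beside 5.87%. HSPE1 was at 90.3, 101 and 138 CPM in EV samples 1, 13 and 25, at 111, 118 and 153 in SH2, and at 80.7, 129 and 144 in SH3. Number 1 was lowest and 25 highest in each group. Its log2 fold change for number 1 was -0.47 ± 0.09 (adjusted p = 0.00254), and that for 25 against 13 was 0.32 ± 0.10 (0.0840). HSPE1 shares reads with the readthrough gene HSPE1-MOB4, so its count is uncertain. Its partner HSPD1, the barrel of the mitochondrial chaperonin, gave -0.33 ± 0.08 (0.00776) and 0.31 ± 0.09 (0.0719). Of the 8 CCT subunits, which fold actin and tubulin, 5 were lower in number 1, and their 8 values ran from -0.36 to -0.04. CCT6A was lower at -0.36 ± 0.07 (adjusted p = 0.00354), CCT5 at -0.33 ± 0.08 (0.00731), CCT7 at -0.27 ± 0.07 (0.00938), CCT3 at -0.24 ± 0.07 (0.0195) and TCP1 at -0.20 ± 0.06 (0.0229). CCT2, CCT4 and CCT8 did not pass, at -0.17, -0.07 and -0.04. For 25 against 13 the 8 subunits had values between 0.03 and 0.17, and 0 were called.

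HSF1 was lower in number 1 at -0.23 ± 0.06 (adjusted p = 0.00918). It was at 209, 234 and 248 CPM in EV samples 1, 13 and 25, at 229, 247 and 266 in SH2, and at 198, 237 and 258 in SH3. All 3 samples numbered 1 lay below the other 6, as for 12.1% of all genes. HSF2 was at 26.5 to 30.0 CPM in all samples, with -0.05 ± 0.06 (0.544). BAG3, an HSP70 nucleotide exchange factor that HSF1 induces, was at 10.1, 9.18 and 12.4 CPM in EV, 10.1, 9.96 and 12.7 in SH2, and 12.1, 8.37 and 11.5 in SH3. It differed by 0.02 ± 0.10 for number 1 (0.877) and by 0.42 ± 0.12 for 25 against 13 (adjusted p = 0.0619), and HSPB1 by 0.14 ± 0.12 (0.363) and 0.03 ± 0.14 (0.932). HSPB1 passed for number 1 only when EV 1 was left out, at 0.34 (adjusted p = 0.0246), and was at -0.078 without SH3 1. Of the 7 inducible members that passed the filter, HSP90AA1 and HSPH1 were lower in number 1, beside 22.2% of all genes. HSP90AA1, HSPH1 and DNAJB1 of these 7 were higher in 25, beside 2.77%. The median of the 7 for 25 against 13 was 0.52, beside 0.17 for all members, which include them. The difference between these medians was not tested, and the contrast was chosen after its values were seen.

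**Figure D5:**
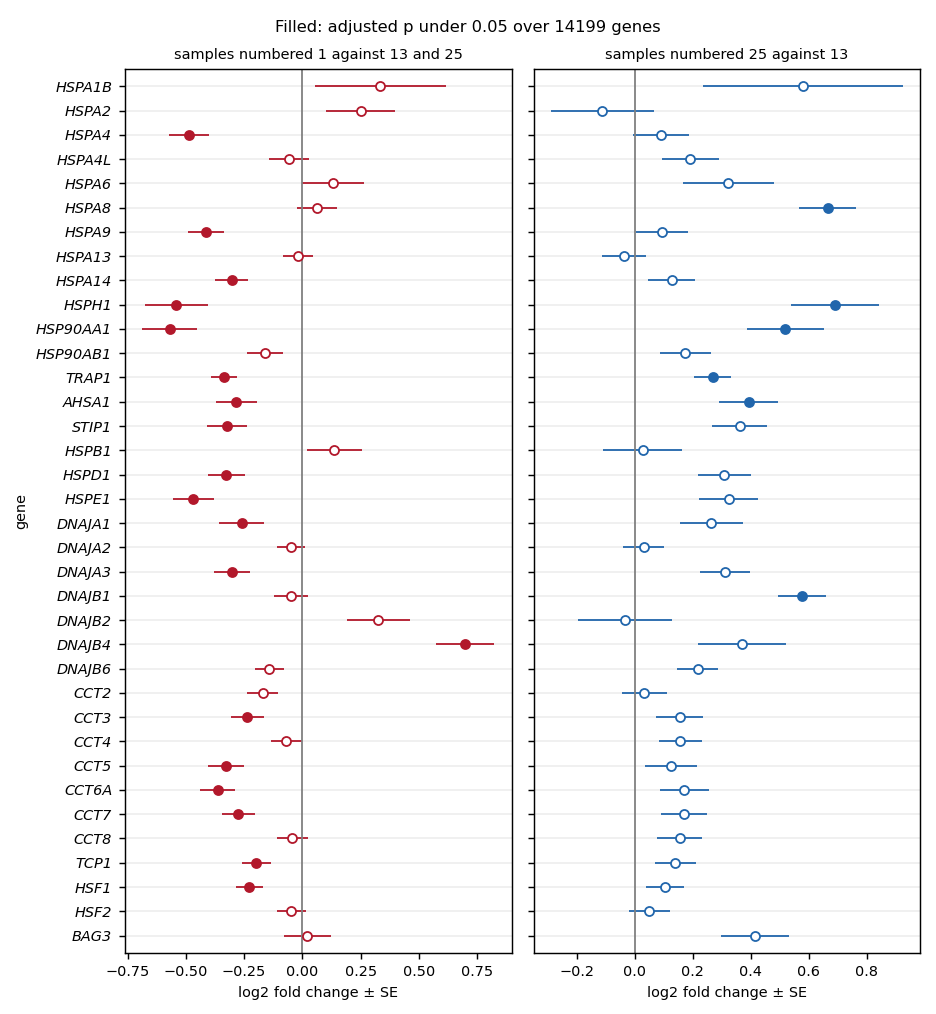
Log2 fold change ± SE of the 36 members for samples numbered 1 against 13 and 25 (left) and for 25 against 13 (right), with group as a term and each panel on its own axis. Filled points are called: 18 lie below 0 and DNAJB4 above it on the left, and 6 lie above 0 on the right, HSPH1 farthest at 0.69.

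The wider folding machinery was described from lists of 71 other genes, of which 61 passed the filter. In number 1, 23 of 61 were lower and 4 higher, with a median of -0.14, beside the 22.2% of all genes that were lower and 24.1% higher. Of 19 other cytosolic co-chaperones 8 were lower and 2 higher, and HSPBP1, an HSP70 exchange factor, was lowest at -0.58 ± 0.09 (adjusted p = 0.00132). Of 16 chaperones of the endoplasmic reticulum 6 were lower and 0 higher, led by SDF2L1 at -0.55 ± 0.12 (0.00389), HYOU1 at -0.54 ± 0.10 (0.0025) and DNAJB11 at -0.49 ± 0.09 (0.00242). Of 10 prefoldin and CCT partners 6 were lower and 1 higher, with PDCD5 at -0.41 ± 0.08 (0.00331). Of 12 mitochondrial folding genes and proteases 3 were lower and 1 higher, and of 4 other small heat shock and HSF genes 0 were called. CHORDC1, an HSP90 co-chaperone, was lower at -0.40 ± 0.10 (adjusted p = 0.00787).

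For 25 against 13, 4 of 61 were higher and 1 lower, beside 2.77% and 3.1% of all genes. Of the 19 cytosolic co-chaperones 4 were higher: CHORDC1 by 0.76 ± 0.11 (adjusted p = 0.0063), FKBP4 by 0.45 ± 0.09 (0.0154), PPID by 0.39 ± 0.08 (0.0237) and SUGT1 by 0.35 ± 0.07 (0.0208). Of the 16 genes of the endoplasmic reticulum and the 12 mitochondrial genes 0 were called, with medians of -0.04 and 0.13, and the lists were not tested against each other. CCT6B, a CCT subunit gene known from testis, was lower at -0.81 ± 0.20 (0.0406). In the blocked fit for both shRNAs averaged, 1 gene of 61 passed, beside 1.1% of all genes: FKBP5, an HSP90-binding immunophilin, was at 141, 156 and 142 CPM in EV samples 1, 13 and 25, at 125, 127 and 123 in SH2, and at 105, 126 and 114 in SH3. All 6 knockdown samples lay below EV, at a log2 fold change of -0.28 ± 0.06 (adjusted p = 0.0482). Over all genes 4.77% had all 6 on 1 side of EV, and 1 call of 61 is near the share of 1.1%. Without EV 1 this contrast called 0.014% of all genes. Without the block FKBP5 was not called (adjusted p = 0.623).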

How the data were processed

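Poly(A) RNA of 9 SKNO-1 samples was sequenced. The authors deposited raw counts per RefSeq transcript, and the submitters' processing notes name hg19, STAR, featureCounts and DESeq2. The study describes unstranded libraries, so antisense overlap was not separated. A read shared by isoforms appeared in several transcripts, so the transcript with most counts over all samples stood for each gene, giving 27714431 to 35406063 counts per sample. For a gene at 0, a limit of 3 counts was 0.0847 to 0.108 CPM. That limit covers counting error only, as the reads carry no molecular identifiers, while SD and SE measure the spread between samples.

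Genes passing filterByExpr (minimum count 10, minimum total 15) numbered 14199. They were tested with edgeR 4.0.16 in R 4.3.3 (TMM, quasi-likelihood F test, Benjamini-Hochberg over all genes, threshold 0.05). The shRNA contrasts used 1 coefficient per group, with and without the sample number as block. The number contrasts used number and group as terms. SE was the log2 fold change divided by the root of F. Same-numbered samples deviated together (mean r 0.598 over 9 pairs, lowest 0.398), so the numbers pair the samples. Alternatives were DESeq2 1.42.0, its size factors, no filter, summed transcripts, length and GC correction, and leaving out each sample. Scripts were tested on simulated data. Gene positions came from GENCODE on GRCh37 and promoter sequences from RefSeq on GRCh38.p14. Level per length was normalised CPM divided by the length of the canonical GENCODE transcript of the gene. That transcript need not be the RefSeq transcript counted, so levels per length and their order are approximate.

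The members and lists were chosen with earlier results of these data known. Full statistics were given for the 12 members with the largest change in number 1 among those called, for inducible members, HSF1 and HSF2, for the 3 smallest p values of each shRNA and interaction contrast, for up to 6 called genes of the wider lists in number 1, and for those called in other contrasts. The 25 against 13 contrast and its members were chosen after their values were seen. A marker gene of the lists is not reported here.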

Additional observations from a re-analysis of the deposited data

How the results depend on the processing

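For the shRNA contrasts, fits with the replicate block and DESeq2 called 0 members, as did all other settings with 9 samples. Leaving out a sample in the blocked fit gave 0 to 3 members for SH2, 0 to 1 for SH3 and 0 to 4 for both averaged. The highest of these counts, without SH3 1, stood beside 11.2%, 2.58% and 12.3% of all genes. The pairing by number changed the call of ASXL2. With both shRNAs averaged, its log2 fold change was past the threshold at -1.09 with the replicate block, -0.91 with the block and the length and GC correction, -1.09 with DESeq2 and the block and -1.07 with DESeq2 alone, and leaving out a sample gave -1.18 to -1.02, past it without SH3 1 and without SH3 25. Samples numbered 1 against 13 and 25 called 16 to 21 members under all alternatives, beside 32.6% to 51.0% of all genes. Samples numbered 25 against 13 called 10 members with DESeq2 and with the length and GC correction, beside 6.91% and 8.09% of all genes in either direction. With no group term 2 were called, beside 2.14%. Leaving out a sample gave 0 to 15, beside 0.348% to 19.2%. Leaving out a sample turned the sign of uncalled values: for number 1 those of HSPA6 (-0.065 to 0.30), HSPB1 (-0.078 to 0.34), DNAJB1 (-0.14 to 0.049) and BAG3 (-0.12 to 0.11), the lower end, or the upper for DNAJB1, without SH3 1, BAG3 also without SH3 13 (-0.023) and SH3 25 (-0.020), and for SH3 against SH2 that of DNAJB2 (-0.0027 without SH3 1, to 0.48). HSPB1 passed the threshold without EV 1. The cause was not tested. HSPA1A, HSPA1L and CRYAB held too few counts to be tested.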
